A study of Arabidopsis thaliana with 12 samples.

Results

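The thalianol and marneral clusters are 2 groups of neighbouring genes on chromosome 5 of Arabidopsis thaliana whose enzymes make root triterpenes. The members were fixed by gene identifier. There are 5 in the thalianol cluster and 3 in the marneral cluster, so 8 of the 32833 genes listed in each deposited gene table. All 8 were listed in the tables of both accessions, and all 8 passed the authors' filter on low values in both. Messenger RNA was sequenced from whole seedlings of the natural accessions Kn-0 and Col-0. Col-0 is the source of the reference genome. Seedlings grown for 4 days under continuous light were moved for 3 h to medium with 5 µM abscisic acid (ABA) or to control medium (mock). ABA is the hormone that accumulates in plants short of water and in maturing seeds. The 4 groups were Kn-0 with ABA, Kn-0 mock, Col-0 with ABA and Col-0 mock, each with 3 libraries that the submitters call biological replicates. The accessions are inbred lines with no transgene or mutation named in the labels, so accession and treatment are the only differences stated.

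Triterpenes are built from oxidosqualene, which an oxidosqualene cyclase folds into a ring scaffold and which cytochrome P450 enzymes and acyltransferases then decorate. In Arabidopsis several of these pathways are encoded by neighbouring genes that are switched on together, mostly in roots, and the thalianol products are known to shape the bacteria that live on the root. In the thalianol cluster, THAS1 makes thalianol, THAH (CYP708A2) hydroxylates it, THAD (CYP705A5) introduces a double bond, and THAA1 and THAA2 are acyltransferases of the BAHD family. In the marneral cluster, MRN1 makes marneral from the same precursor, CYP71A16 oxidises it, and CYP705A12 is a further cytochrome P450.

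On the TAIR10.1 assembly the thalianol cluster spans 44.7 kb (chr5:19417020-19461706) and the marneral cluster 34.7 kb (chr5:17023502-17058245), with 2359 kb between them. THAS1 (AT5G48010) lies at chr5:19456837-19461706 on the plus strand, THAH (AT5G48000) at chr5:19444103-19447866 on the minus strand and THAD (AT5G47990) at chr5:19434758-19436749 on the plus strand. THAA1 (AT5G47980) lies at chr5:19428888-19430517 on the plus strand and THAA2 (AT5G47950) at chr5:19417020-19418657 on the minus strand. MRN1 (AT5G42600) lies at chr5:17053453-17058245 on the plus strand, CYP71A16 (AT5G42590) at chr5:17031024-17033800 and CYP705A12 (AT5G42580) at chr5:17023502-17025361, both on the minus strand. THAA1 and THAA2 are annotated with 1 exon each. That leaves no splice junction to count in them.

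The 250 bases before the most upstream annotated transcript start are shown for 4 members that behaved differently under ABA. THAS1 had the largest deposited decrease of the cluster genes, THAD also fell, MRN1 was higher, and CYP705A12 did not pass the test. The sequences are those of the RefSeq Col-0 assembly TAIR10.1, written 5′ to 3′ on the strand of the gene, and the Kn-0 sequence was not used here. Capitals mark 3 motifs searched on both strands. They are ACGTG (the core of the ABA-responsive element), TTGAC (the core of the W-box bound by WRKY factors) and TAAATGNA. The last is a looser spelling of the L1 box of epidermal promoters, which has C or T at the N.
THAS1 (chr5:19456587-19456836, plus strand): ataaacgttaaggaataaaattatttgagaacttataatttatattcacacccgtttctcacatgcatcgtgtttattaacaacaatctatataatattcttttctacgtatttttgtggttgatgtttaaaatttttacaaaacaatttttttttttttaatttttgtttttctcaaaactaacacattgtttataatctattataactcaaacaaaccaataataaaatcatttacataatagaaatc
THAD (chr5:19434508-19434757, plus strand): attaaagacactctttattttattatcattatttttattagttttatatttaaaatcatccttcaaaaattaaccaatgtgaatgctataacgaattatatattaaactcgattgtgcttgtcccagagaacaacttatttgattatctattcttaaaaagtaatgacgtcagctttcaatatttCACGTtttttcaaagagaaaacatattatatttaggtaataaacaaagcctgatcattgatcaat
MRN1 (chr5:17053203-17053452, plus strand): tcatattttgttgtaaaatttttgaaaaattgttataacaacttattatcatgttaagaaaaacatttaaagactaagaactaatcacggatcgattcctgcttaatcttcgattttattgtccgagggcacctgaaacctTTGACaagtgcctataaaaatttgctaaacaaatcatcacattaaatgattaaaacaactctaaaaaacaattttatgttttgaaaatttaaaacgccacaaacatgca
CYP705A12 (chr5:17025362-17025611, minus strand): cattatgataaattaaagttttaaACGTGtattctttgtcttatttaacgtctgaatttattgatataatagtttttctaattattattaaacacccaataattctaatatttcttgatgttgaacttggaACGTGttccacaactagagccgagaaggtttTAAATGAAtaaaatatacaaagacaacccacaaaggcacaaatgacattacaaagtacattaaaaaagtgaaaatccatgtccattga
The THAS1 window held none of the 3 motifs. THAD held 1 ABA-responsive core, starting 65 bases before the transcript start, and MRN1 held 1 W-box core, starting 109 bases before it. Positions are those of the motif's first base. CYP705A12, whose change did not pass the test in either accession, held 2 ABA-responsive cores (at 226 and 119 bases) and 1 TAAATGNA match (at 88 bases). Over all 8 members the ABA-responsive core was found in 3 windows (THAD, THAA1 and CYP705A12), against 22.9% of the 27443 protein-coding promoters of the same length. The W-box core was found in 4 (THAH, THAA2, MRN1 and CYP71A16; 44.9% of promoters) and TAAATGNA in 2 (THAH and CYP705A12; 9.91% of promoters). Both TAAATGNA matches read TAAATGAA, with A at the N, so neither spells the L1 box. The ABA-responsive core was thus spelled in 2 thalianol windows and 1 marneral window, and these letters did not occur in the MRN1 window. The windows of THAS1 and THAD had a GC content of 20.8% and 24.0%, and that of MRN1 27.2%.

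Junction reads counted over 1 splicing event per gene ran from 14597346 to 15285000 per library in Kn-0 and from 14250345 to 15549077 in Col-0. Whole seedlings hold shoot and root, so a change in these root-expressed genes cannot be told apart into fewer cells of a type and less RNA per cell. All 27 markers of root hair and epidermis, endodermis, root cap, stem cell niche, stele and xylem had an authors' mean above 0 in both accessions, as did the 6 markers of green tissue. Of the 27 root markers, 7 were higher and 9 lower in Kn-0 and 5 were higher and 10 lower in Col-0, with deposited log2 fold changes from -0.93 to 0.81 in Kn-0 and from -1.20 to 0.90 in Col-0. Over all tested genes 22.9% were higher and 21.5% lower in Kn-0, and 19.8% were higher and 18.4% lower in Col-0. Of the 27, 15 had junction reads in Kn-0 and 16 in Col-0. The summed level of these was 159 to 177 RPM (junction reads per 1000000 in the library) in ABA libraries and 163 to 177 in mock libraries of Kn-0. It was 153 to 172 in ABA libraries and 157 to 167 in mock libraries of Col-0. In Kn-0, endodermis markers gave 63.0 to 81.1 RPM of the sum, and stele and xylem markers 75.9 to 85.0 RPM. In Col-0 they gave 50.7 to 64.1 and 61.4 to 78.8 RPM. The sum thus says little of the other root cell types. PLT1 and PLT2 of the root stem cell niche were named after their values were seen. By the authors' deposited tables they stood at -0.93 and -0.78 in Kn-0 and at -1.20 and -0.63 in Col-0. WOX5, the remaining niche marker, did not pass in either accession (-0.39 for Kn-0, -0.07 for Col-0). Outside the niche, GL2, WER, CASP2, CASP4, SMB and WOL were lower in both accessions. EXPA7, RHD6, CASP5, VND7 and XCP1 were higher in both. The part of these changes in the results on the cluster genes was not tested.

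All 5 thalianol genes fell under ABA in both accessions, while MRN1 rose in both and the marneral P450 genes did not rise in either. In the authors' deposited tables, tested with DESeq2, 6 of the 8 genes had an adjusted p under 0.05 in Kn-0, 5 lower and 1 higher, where 44.4% of all 23710 tested genes passed, 21.5% lower and 22.9% higher. In Col-0, 7 of the 8 genes passed, 6 lower and 1 higher, where 38.3% of 23687 tested genes passed, 18.4% lower and 19.8% higher. The median log2 fold change of the thalianol genes was -1.41 in Kn-0 and -2.46 in Col-0, and that of all tested genes was 0.0 in both. A call was thus common among all genes. By absolute log2 fold change, THAS1 stood at percentile 98.2 of the tested genes in both accessions and MRN1 at 98.8 in Kn-0 and 97.3 in Col-0, in the authors' deposited tables.

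**Figure D1:**
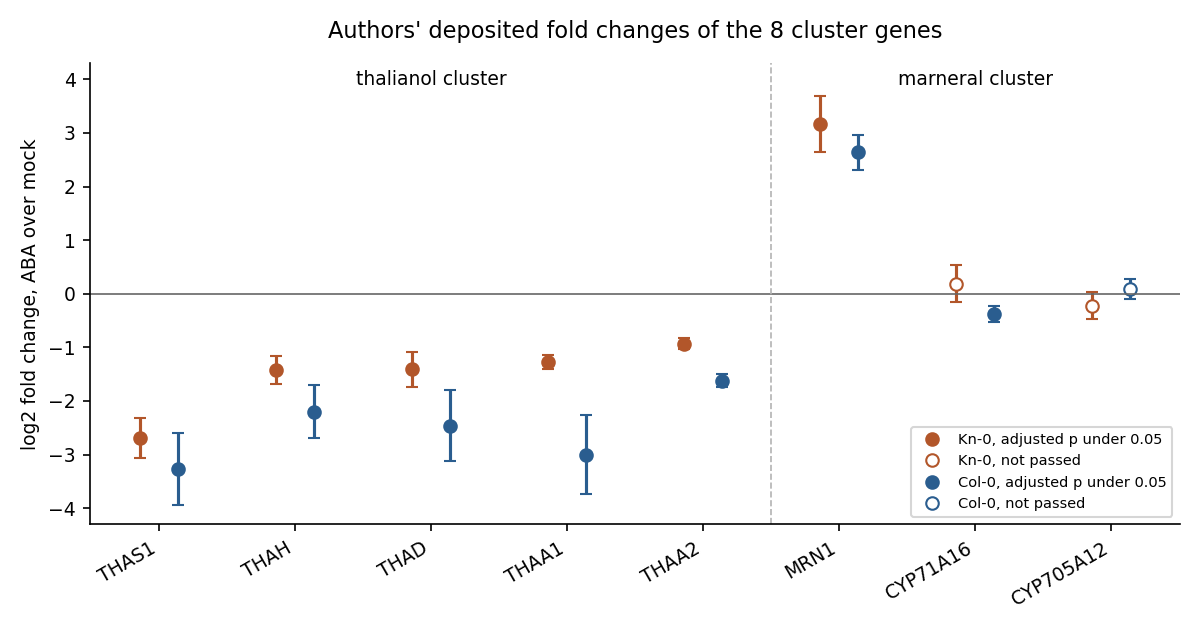
Deposited log2 fold change of ABA over mock (y axis) for the 8 cluster genes (x axis), with points for Kn-0 left of those for Col-0, bars of 1 standard error, and open points where the adjusted p was 0.05 or more. All 5 thalianol genes lie below 0 in both accessions, from -2.69 to -0.93 in Kn-0 and from -3.27 to -1.62 in Col-0, and MRN1 lies above 0 at 3.17 in Kn-0 and 2.64 in Col-0.

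THAS1, the cyclase that opens the thalianol pathway, fell by most. Its deposited log2 fold change was -2.69 ± 0.38 (SE) in Kn-0 (adjusted p = 1.2e-11, DESeq2), which is 6.47-fold lower in ABA than in mock libraries, in the authors' deposited table. In Col-0 it was -3.27 ± 0.676 (adjusted p = 8e-06, DESeq2), or 9.67-fold lower, in the authors' deposited table. The gene tables hold no value per library, so the level in each library was read from junction reads of the gene's most covered splicing event in that accession. In Kn-0, THAS1 had 10.4, 9.25 and 6.15 RPM in the ABA libraries and 53.0, 64.7 and 45.5 RPM in the mock libraries, from 91 to 152 and from 695 to 963 raw reads. In Col-0 it had 6.81, 2.78 and 1.34 RPM in the ABA libraries, from 97, 40 and 20 raw reads, and 42.0, 42.3 and 19.6 in the mock libraries. The highest ABA library lay below the lowest mock library in each accession. How many of all genes separate in this way was not counted, here or where groups are said not to overlap below. The ABA libraries of Col-0 spread over 5.07-fold, against 1.68-fold in the ABA libraries of Kn-0.

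THAH, the hydroxylase that acts on thalianol, had a smaller deposited decrease than THAS1. Its deposited log2 fold change was -1.43 ± 0.263 in Kn-0 (adjusted p = 2.9e-07) and -2.20 ± 0.492 in Col-0 (adjusted p = 4.1e-05), in the authors' deposited DESeq2 tables. Junction reads of THAH stood at 26.0, 16.6 and 12.7 RPM in the ABA libraries and 49.6, 54.5 and 37.5 in the mock libraries of Kn-0. They stood at 10.5, 8.61 and 3.62 RPM in the ABA libraries and 41.0, 40.0 and 24.9 in the mock libraries of Col-0. The groups did not overlap in either accession, and in all 4 groups the library listed last was the lowest of its group for THAH, as for THAS1. Within a library, the log2 ratio of THAS1 over THAH reads was -1.33, -0.85 and -1.05 with ABA and 0.10, 0.25 and 0.28 in mock seedlings of Kn-0. It was -0.63, -1.63 and -1.43 with ABA and 0.03, 0.08 and -0.34 in mock seedlings of Col-0. The ratio was lower in every ABA library than in any mock library of its accession, a difference between the genes that was not tested. An exact two-sided permutation test of 3 against 3 cannot give a p below 0.1.

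In limma fits of the junction reads, 2 of the 3 cluster genes with splicing events in Col-0 were lower and 1 was higher, where 29.8% of the 13797 genes tested passed. In Kn-0, 2 of 4 were lower and 1 was higher, where 37.4% of 13716 genes passed. The log2 difference of THAS1 was -2.68 ± 0.157 in Kn-0 (adjusted p = 4.5e-10, limma) and -3.46 ± 0.42 in Col-0 (adjusted p = 1.6e-05, limma). That of THAH was -1.40 ± 0.184 in Kn-0 (adjusted p = 1.2e-05, limma) and -2.31 ± 0.295 in Col-0 (adjusted p = 2.6e-05, limma). The junction reads come from the same libraries as the gene tables and are not an independent sample.

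**Figure D2:**
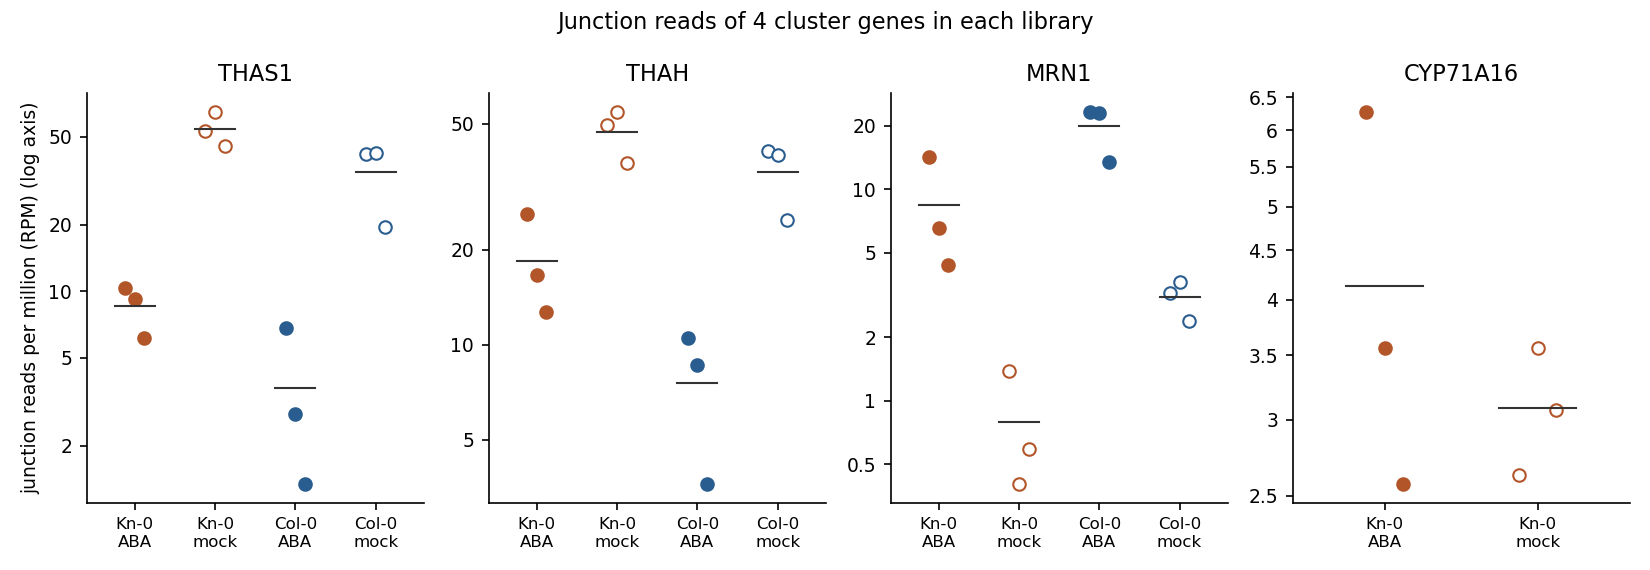
Junction reads in RPM (y axis, log scale) in each library for the 4 cluster genes with splicing events, by accession and treatment (x axis), with lines at the arithmetic mean of 3 libraries. THAS1 and THAH are lower and MRN1 is higher in every ABA library than in every mock library of the same accession, while the Kn-0 groups of CYP71A16 overlap, and each gene's events differ between accessions.

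The decorating genes of the thalianol pathway fell with the cyclase. THAD, the desaturase, averaged 2570 normalized counts per exonic kilobase in Kn-0 and 1920 in Col-0 over ABA and mock libraries together, in the authors' deposited tables. Its deposited log2 fold change was -1.41 ± 0.328 in Kn-0 (adjusted p = 7.6e-05) and -2.46 ± 0.655 in Col-0 (adjusted p = 0.00075), in the authors' deposited DESeq2 tables. THAA1, the acyltransferase next to it, stood at -1.28 ± 0.133 in Kn-0 (adjusted p = 8.3e-21) and -3.00 ± 0.739 in Col-0 (adjusted p = 0.00024), in the authors' deposited DESeq2 tables. THAA2, the acyltransferase at the left edge of the cluster, had the smallest deposited change of the thalianol genes, an order that was not tested. It stood at -0.93 ± 0.0956 in Kn-0 (adjusted p = 3.5e-21) and -1.62 ± 0.127 in Col-0 (adjusted p = 9.4e-36), in the authors' deposited DESeq2 tables. These 3 genes had no splicing event, so the spread over their libraries was not seen here. The standard error of 4 of the thalianol genes in Col-0 lay between 0.492 and 0.739, and that of THAA2 was 0.127, in the authors' deposited table. In Kn-0 the 5 standard errors ran from 0.0956 to 0.38 in the authors' deposited table.

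MRN1, the marneral cyclase, moved against the thalianol genes. It rose by a deposited log2 fold change of 3.17 ± 0.523 in Kn-0 (adjusted p = 8.8e-09, DESeq2), or 9.03-fold, and by 2.64 ± 0.328 in Col-0 (adjusted p = 1.2e-14, DESeq2), or 6.24-fold, in the authors' deposited tables. In Kn-0 it had 14.3, 6.58 and 4.39 RPM in the ABA libraries and 1.38, 0.403 and 0.589 in the mock libraries. The Kn-0 mock values rest on 21, 6 and 9 reads. In Col-0 it had 23.2, 23.0 and 13.4 RPM in the ABA libraries and 3.25, 3.65 and 2.38 in the mock libraries. Every ABA library was above every mock library of its accession. The log2 difference in junction reads was 3.36 ± 0.418 in Kn-0 (adjusted p = 6.2e-06, limma) and 2.65 ± 0.216 in Col-0 (adjusted p = 2.3e-07, limma).

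The opposite changes of the cyclases, which use the same precursor, can also be put as a ratio within each library. The log2 ratio of MRN1 over THAS1 reads was 0.47, -0.49 and -0.49 in the ABA libraries and -5.26, -7.33 and -6.27 in the mock libraries of Kn-0. It was 1.77, 3.05 and 3.31 in the ABA libraries and -3.69, -3.53 and -3.04 in the mock libraries of Col-0. The ABA and mock libraries did not overlap in either accession, which follows from the values of the 2 genes above and is no further evidence. The reads come from 1 event per gene, so the ratio can be compared between libraries of an accession but is no ratio of transcript numbers.

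**Figure D3:**
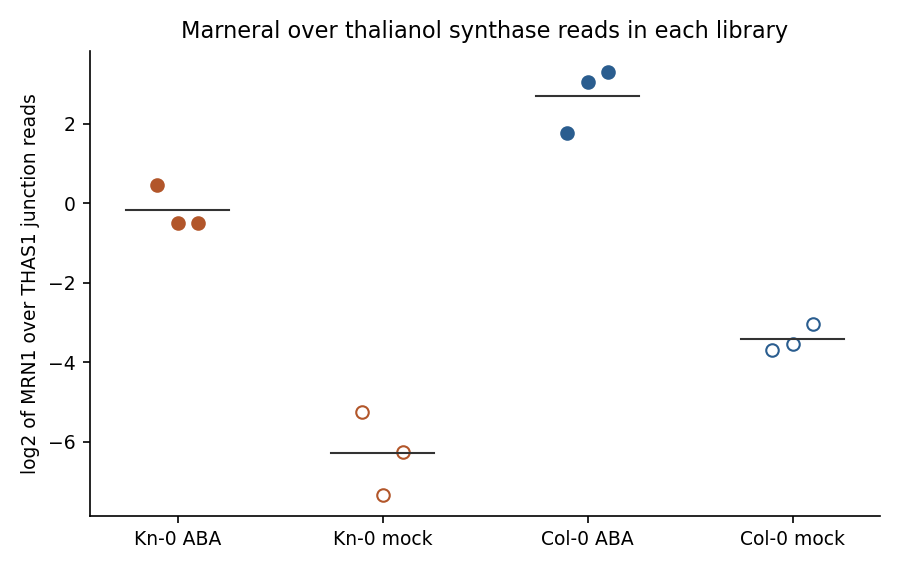
Log2 ratio of MRN1 over THAS1 junction reads (y axis) in each of the 12 libraries, grouped by accession and treatment (x axis), with lines at the group mean. The ABA libraries lie between -0.49 and 0.47 in Kn-0 and between 1.77 and 3.31 in Col-0, above all mock libraries of their accession, which lie between -7.33 and -5.26 in Kn-0 and between -3.69 and -3.04 in Col-0.

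The other marneral genes did not follow MRN1. CYP71A16, the marneral oxidase, had a deposited log2 fold change of 0.19 ± 0.345 in Kn-0 (adjusted p = 0.70) and -0.38 ± 0.144 in Col-0 (adjusted p = 0.022), in the authors' deposited DESeq2 tables. Its fall in Col-0 was 1.31-fold in the authors' deposited table, and the call is lost at a threshold of 0.01. Its junction reads in Kn-0 stood at 6.27, 3.56 and 2.57 RPM in the ABA libraries and 2.63, 3.56 and 3.07 in the mock libraries, and the groups overlapped (log2 difference 0.33 ± 0.271, adjusted p = 0.37, limma). The highest of these 6 libraries was the ABA library listed first. CYP705A12 had a deposited log2 fold change of -0.22 ± 0.254 in Kn-0 (adjusted p = 0.53) and 0.09 ± 0.191 in Col-0 (adjusted p = 0.77), in the authors' deposited DESeq2 tables. The 95% Wald intervals were -0.72 to 0.28 in Kn-0 and -0.29 to 0.46 in Col-0, so a rise as large as that of MRN1 lies outside both, by the errors in the authors' deposited tables.

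The order of the 8 genes by level depended on the treatment. The deposited mean pools 3 ABA and 3 mock libraries, and levels in each treatment were estimated from that mean and the deposited fold, as normalized counts per exonic kilobase. In Kn-0 with ABA the estimates from the authors' deposited table were 1410 for THAD, 619 for THAH, 475 for THAA2, 340 for THAS1, 298 for MRN1, 294 for CYP705A12, 203 for CYP71A16 and 195 for THAA1. In Kn-0 mock seedlings they were 3740 for THAD, 2200 for THAS1, 1670 for THAH, 905 for THAA2, 475 for THAA1, 343 for CYP705A12, 177 for CYP71A16 and 33.0 for MRN1, from the authors' deposited table. THAD thus ranked first of the 8 in Kn-0 under both treatments, and MRN1 ranked last in mock seedlings only. In Col-0 with ABA they were 946 for MRN1, 589 for THAD, 332 for CYP71A16, 292 for THAH, 215 for CYP705A12, 155 for THAS1, 150 for THAA2 and 55.1 for THAA1, from the authors' deposited table. In Col-0 mock seedlings they were 3240 for THAD, 1500 for THAS1, 1350 for THAH, 460 for THAA2, 442 for THAA1, 433 for CYP71A16, 202 for CYP705A12 and 152 for MRN1, from the authors' deposited table. In Col-0 MRN1 was the lowest of the 8 in mock seedlings and the highest with ABA. These estimates carry no spread, so neighbours in an order cannot be separated, and the gene tables of the accessions were normalized separately.

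The difference in MRN1 between accessions could be tested in splicing events that both tables hold. Events were matched by gene, type, strand and exon lengths, and 7 events of THAS1, THAH and MRN1 matched. Levels in these events are given per 1000000 reads of the matched events alone, which total from 8477462 to 9335837 in a library, so they stand higher than the RPM of the same reads above. In the deepest matched event, MRN1 had 1.33, 0.225 and 0.66 reads per 1000000 matched reads in Kn-0 mock libraries and 5.98, 4.23 and 3.11 in Col-0 mock libraries. The mock groups did not overlap, and the log2 difference of Kn-0 over Col-0 was -2.73 ± 0.464 (adjusted p = 0.00014, limma), where 28.2% of the 9294 matched genes passed. The Kn-0 values rest on 12, 2 and 6 reads. As a log2 ratio of group means, another measure than the limma difference, the deepest matched event of MRN1 gave -2.59 and its second -2.06. With ABA the same deepest event had 14.7, 5.8 and 4.35 reads per 1000000 matched reads in Kn-0 libraries and 29.7, 26.5 and 13.8 in Col-0 libraries, where the groups overlapped.

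THAS1 and THAH did not pass this test. THAS1 had 84.5, 104 and 76.0 reads per 1000000 matched reads in Kn-0 mock libraries and 70.3, 70.9 and 32.7 in Col-0 mock libraries, a log2 difference of 0.68 ± 0.373 (adjusted p = 0.19, limma). On the same scale THAH had 70.8, 75.2 and 53.9 in Kn-0 mock libraries and 68.6, 67.1 and 41.5 in Col-0 mock libraries, a log2 difference of 0.20 ± 0.284 (adjusted p = 0.65, limma). The Kn-0 events carry coordinates of another genome than TAIR10.1, so the 2 sets of reads may differ in how many could be aligned. The part of this in the MRN1 difference was not tested.

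Kn-0 and Col-0 differed in their ABA response for 1 of the 8 genes in the Wald test of the deposited changes, where 3.09% of 23994 genes passed. THAA2 fell less in Kn-0 than in Col-0, with log2 fold changes of -0.93 in Kn-0 and -1.62 in Col-0, a difference of 0.68 ± 0.159 (adjusted p = 0.0013, Wald test on the authors' deposited tables). The slope of the Kn-0 changes on those of Col-0, fitted through the origin over the genes called in either accession, was 0.736. Divided by that slope, the THAA2 difference was 0.35 and no longer passed (adjusted p = 0.40, Wald test on the authors' deposited tables). Before that scaling THAA1 had the largest difference of the 8 genes, 1.72 ± 0.751 with a 95% interval of 0.25 to 3.20, which did not pass (adjusted p = 0.32, Wald test on the authors' deposited tables). Divided by the slope, MRN1 had the largest, 1.67 against 1.26 for THAA1, and neither passed (adjusted p = 0.31 for MRN1 and 0.54 for THAA1, Wald test on the authors' deposited tables). The difference was 0.58 ± 0.775 for THAS1, 0.77 ± 0.558 for THAH, 1.05 ± 0.732 for THAD, 0.53 ± 0.617 for MRN1, 0.58 ± 0.373 for CYP71A16 and -0.31 ± 0.318 for CYP705A12, and none of these 6 passed (lowest adjusted p = 0.79, Wald test on the authors' deposited tables). In junction reads, the limma interaction passed for 0 of the 3 genes tested, where 0.56% of 9294 genes passed, and 1 of the 3 (THAH) had an unadjusted p under 0.05. The THAH difference there was 0.86 ± 0.401 (adjusted p = 0.58, limma), in the same direction as in the deposited changes. The share of all genes with an unadjusted p under 0.05 was not counted.

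No splicing event of the cluster genes was called in either accession, by a test that few of all events passed. The authors' rMATS tables held 50 events of THAS1, THAH, MRN1 and CYP71A16 in Kn-0 and 56 events of THAS1, THAH and MRN1 in Col-0. Of these, 43 events in Kn-0 and 46 in Col-0 averaged 10 or more junction reads and could be called. At an FDR under 0.05 and a change of 0.1 or more in inclusion, 0 events were called in either accession, in the authors' deposited rMATS tables. Of all events tested there, 0.114% of 168812 in Kn-0 and 0.162% of 163940 in Col-0 passed. With calls that rare, 0 among the events of the cluster genes says little about these genes. At an unadjusted p under 0.05 there were 3 of the 50 events in Kn-0 and 2 of the 56 in Col-0, in the authors' deposited rMATS tables. The share of all events at that unadjusted threshold was not counted. The lowest FDR in Kn-0 was 0.173, for a retained intron of THAS1 with inclusion levels of 0.022, 0.014 and 0.008 in the ABA libraries and 0.025, 0.033 and 0.043 in the mock libraries, in the authors' deposited rMATS table. The lowest in Col-0 was 0.256, for a retained intron of 181 bases near the 5′ end of THAH (chr5:19447009-19447189), in the authors' deposited rMATS table. Its inclusion levels were 1.0, 0.692 and 1.0 in the ABA libraries and 0.818, 0.864 and 0.65 in the mock libraries, from a mean of 24.0 reads. The ABA levels rest on 8, 9 and 1 inclusion reads and 0, 2 and 0 skipping reads, so the last is a single read. The mock levels rest on 45, 38 and 26 inclusion reads and 5, 3 and 7 skipping reads.

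Other events of the same genes changed in the same direction as the most covered one. Over the events with at least 10 reads, the log2 ratio of ABA over mock junction reads lay between -3.09 and -2.33 for 22 events of THAS1 in Kn-0 and between -3.95 and -2.95 for 25 events in Col-0. For THAH it lay between -1.66 and -0.99 for 12 events in Kn-0 and between -2.57 and -2.11 for 10 events in Col-0. For MRN1 it lay between 2.90 and 3.48 for 8 events in Kn-0 and between 2.26 and 3.07 for 11 events in Col-0. Events of a gene share reads and are not replicates.

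The genes around the clusters, placed by the TAIR10.1 assembly for both accessions, moved in both directions. Their places in the Kn-0 genome were not examined. Of the 5 annotated genes on each side of the thalianol cluster and those between its members, 12 were tested in each accession, and 1 was higher and 5 were lower in each. Of all tested genes, 22.9% were higher and 21.5% lower in Kn-0, and 19.8% were higher and 18.4% lower in Col-0. Their log2 fold changes ran from -0.86 to 0.27 in Kn-0 and from -0.93 to 0.73 in Col-0, in the authors' deposited tables. Of the genes inside the thalianol cluster that are no part of the pathway, RABA4C, a small GTPase, stood at -0.21 ± 0.156 in Kn-0 (adjusted p = 0.30) and -0.45 ± 0.209 in Col-0 (adjusted p = 0.074), in the authors' deposited DESeq2 tables. AT5G47970 fell, at -0.26 ± 0.07 in Kn-0 (adjusted p = 0.0006) and -0.28 ± 0.0938 in Col-0 (adjusted p = 0.0089), in the authors' deposited DESeq2 tables. RABA4C overlaps AT5G47970 on the assembly, on the other strand, and how the counting treated strand is not given in the sources used here, so both values are uncertain. Around the marneral cluster 5 genes were tested, of which 3 were higher and 1 lower in each accession. Their log2 fold changes ran from -0.84 to 1.27 in Kn-0 and from -0.99 to 1.24 in Col-0, in the authors' deposited tables. The 3 annotated RNA genes between CYP71A16 and MRN1 had no test in either table.

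**Figure D4:**
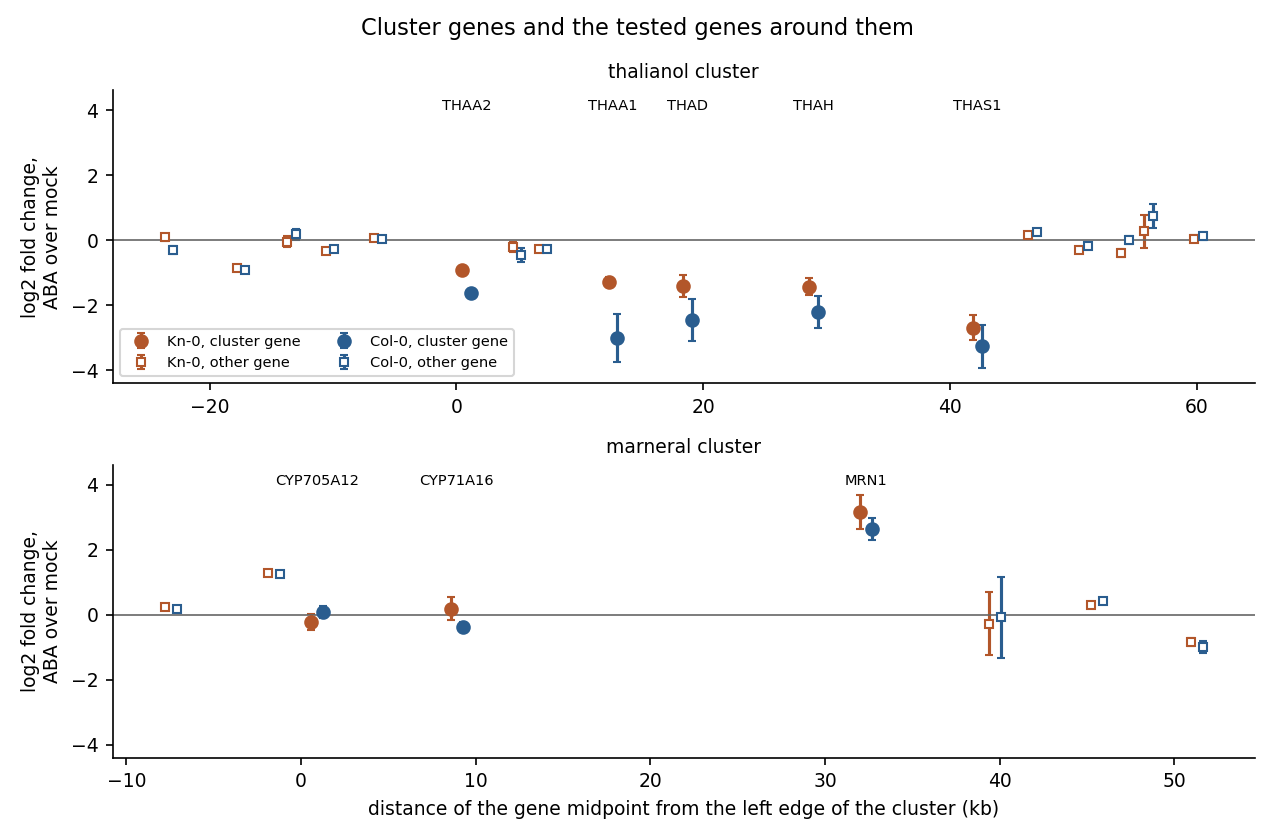
Deposited log2 fold change of ABA over mock with 1 standard error (y axis) against the distance of each gene's midpoint from the left edge of its cluster in kb (x axis), for the cluster genes (filled) and the tested genes around them (open), Kn-0 left of Col-0. Positions are those of TAIR10.1 for both accessions. Inside the thalianol cluster RABA4C and AT5G47970 lie between -0.45 and -0.21, while all 5 pathway genes lie at -0.93 or below, and in the marneral cluster MRN1 alone lies above 2.

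Of the listed enzymes from mevalonate to squalene, and of the squalene epoxidases and related proteins, more were higher than lower under ABA. Of 15 enzymes from mevalonate to squalene, 7 were higher and 2 lower in Kn-0 and 8 were higher and 2 lower in Col-0, with a median log2 fold change of 0.04 in Kn-0 and 0.16 in Col-0. The shares over all tested genes were 22.9% higher and 21.5% lower in Kn-0, and 19.8% higher and 18.4% lower in Col-0. SQS2, a squalene synthase, rose by 0.94 ± 0.076 in Kn-0 (adjusted p = 2.2e-33) and 1.37 ± 0.144 in Col-0 (adjusted p = 3.7e-20), in the authors' deposited DESeq2 tables. HMG1, an HMG-CoA reductase of the mevalonate pathway, rose by 0.25 in Kn-0 and 0.57 in Col-0 in the authors' deposited tables. MVD2 rose by 0.39 in Kn-0 and 0.27 in Col-0, and HMGS was at -0.23 in Kn-0 and -0.32 in Col-0, in the authors' deposited tables. Squalene epoxidases make the oxidosqualene that both clusters draw on. Of 6 such enzymes and related proteins, whose activity was not measured here, 4 were higher in Kn-0, and 3 were higher and 1 lower in Col-0. SQE1 and SQE2 did not pass in either accession, in the authors' deposited tables. SQP2 rose by 1.46 ± 0.0887 in Kn-0 and 1.60 ± 0.141 in Col-0, and SQE3 by 0.82 ± 0.0642 in Kn-0 and 0.88 ± 0.0805 in Col-0, in the authors' deposited tables. SQE6 passed in opposite directions, at 0.27 in Kn-0 and -0.26 in Col-0, a difference of 0.53 ± 0.118 (adjusted p = 0.00081, Wald test on the authors' deposited tables). SQP1 rose by 0.35 in Kn-0 and 0.33 in Col-0, in the authors' deposited tables. The sterol cyclase CAS1, which takes oxidosqualene into membrane sterols, did not pass in either accession, at -0.04 in Kn-0 and 0.10 in Col-0, in the authors' deposited tables. LAS1, the lanosterol synthase, stood at -0.62 in Kn-0, where it did not pass, and at -0.67 in Col-0, where it was lower, in the authors' deposited tables.

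Most decorating genes of other triterpene clusters were lower under ABA. Of 10 listed decorating genes of the arabidiol, baruol and tirucalladienol regions, 7 of the 9 tested were lower and 1 higher in Kn-0, and 9 were lower and 1 higher in Col-0. Among all tested genes 21.5% were lower and 22.9% higher in Kn-0, and 18.4% were lower and 19.8% higher in Col-0. The median log2 fold change was -0.69 in Kn-0 and -1.50 in Col-0. CYP716A2 stood at -1.71 ± 0.201 in Kn-0 and -3.78 ± 0.799 in Col-0, and AT5G36130 at -1.68 ± 0.305 in Kn-0 and -3.24 ± 0.478 in Col-0, in the authors' deposited tables. AT4G15390, an acyltransferase gene, fell in both, at -1.89 ± 0.0944 in Kn-0 and -1.95 ± 0.0776 in Col-0, in the authors' deposited tables. CYP705A3 passed in Col-0 at -4.54 ± 1.83 with an authors' mean of 2.22, in the authors' deposited table, and had no adjusted p in Kn-0. CYP705A1 was the listed decorating gene that differed between accessions, at -0.21 ± 0.122 in Kn-0, where it did not pass, and -1.27 ± 0.132 in Col-0 (difference 1.06 ± 0.179, adjusted p = 8.4e-07, Wald test on the authors' deposited tables). It is named after its value was seen. CYP716A1 was the gene that rose, by 0.90 in Kn-0 and 0.78 in Col-0 in the authors' deposited tables, and is named after its value was seen.

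Among the other triterpene cyclases, 2 were higher and 4 lower of 9 tested in Kn-0, and 0 were higher and 3 lower of 8 tested in Col-0. For this list and the next, the shares over all tested genes were 22.9% higher and 21.5% lower in Kn-0. In Col-0 they were 19.8% higher and 18.4% lower. PEN3, the tirucalladienol synthase, stood at -2.03 ± 0.41 in Kn-0 and -2.37 ± 0.421 in Col-0, and BARS1, the baruol synthase, at -2.16 ± 0.506 in Kn-0 and -1.89 ± 0.534 in Col-0, in the authors' deposited tables. PEN1, the arabidiol synthase, stood at -0.66 in Kn-0 and -1.09 in Col-0 in the authors' deposited tables. The genes that rose in Kn-0 were LUP2 (0.43) and LUP4 (0.39), which did not pass in Col-0 (0.09 and 0.15), in the authors' deposited tables. They are named after their values were seen, and the difference between accessions passed for neither (adjusted p = 0.28 for LUP2 and 0.93 for LUP4, Wald test on the authors' deposited tables). LUP1, a lupeol synthase, passed in Kn-0 at -1.14 ± 0.14 and not in Col-0 at -0.01 ± 0.0891, in the authors' deposited tables. Kn-0 and Col-0 differed for LUP1 by -1.12 ± 0.166 (adjusted p = 5.1e-09, Wald test on the authors' deposited tables). Of 10 regulators of chromatin reported to act on these clusters, 2 were lower in Kn-0 and 1 was higher in Col-0, with log2 fold changes from -0.30 to 0.08 in Kn-0 and from -0.13 to 0.22 in Col-0, in the authors' deposited tables. HTA8 and HTA11, histones of the H2A.Z type, stood at -0.30 and -0.21 in Kn-0, and CLF, a methyltransferase of Polycomb complex PRC2, at 0.08 in Kn-0 and 0.22 in Col-0, in the authors' deposited tables.

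**Figure D5:**
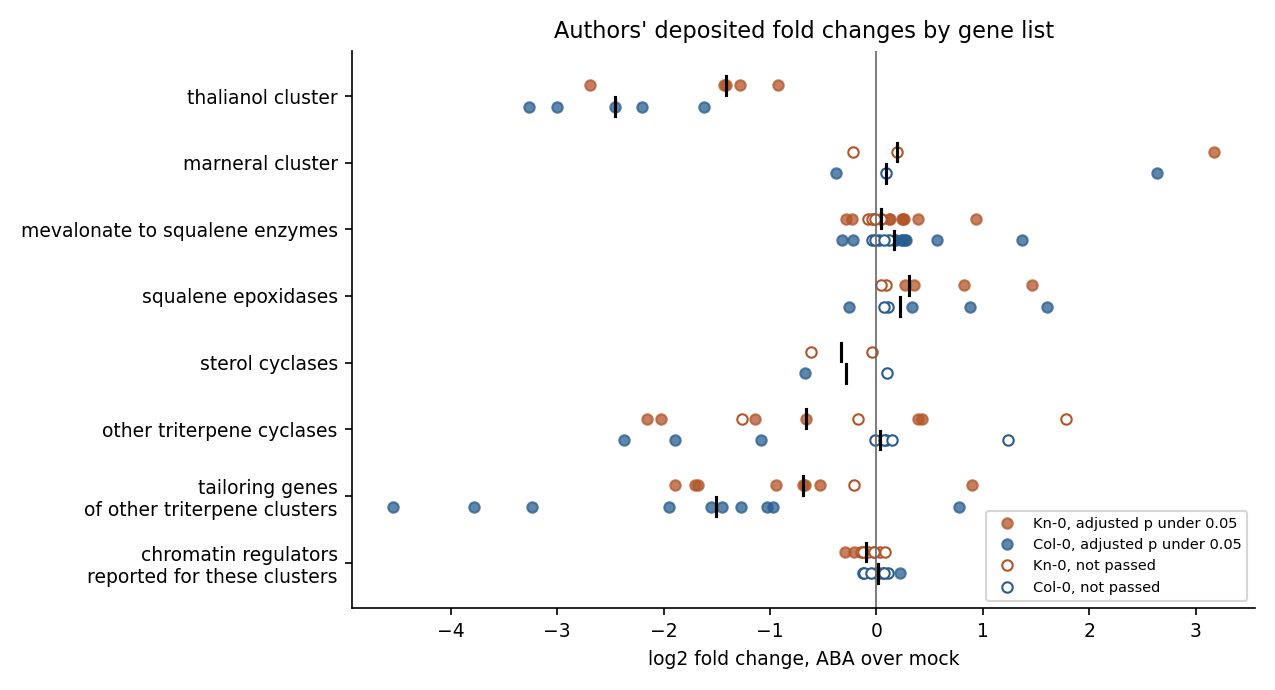
Deposited log2 fold change of ABA over mock (x axis) of each tested gene by list (y axis), with Kn-0 above Col-0, open points where the adjusted p was 0.05 or more, and a black line at the list's median. The medians of the thalianol genes (-1.41 in Kn-0 and -2.46 in Col-0) and of the decorating genes of other triterpene clusters (-0.69 in Kn-0 and -1.50 in Col-0) lie below 0. Those of the enzymes from mevalonate to squalene and of the squalene epoxidases and related proteins lie above 0.

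The 5 genes whose pattern over the 12 libraries was most like that of THAS1 included THAH. It was the only other thalianol gene with a matched event, so THAD, THAA1 and THAA2 could not appear. Likeness was the root mean square distance between log2 reads per 1000000 matched reads, centred on each gene's mean, over the matched events of 8561 other genes. The nearest to THAS1 were AT1G66800 at 0.575, MLP34 at 0.648, THAH at 0.695, AT1G27020 at 0.702 and ABCB21, a transporter of the ABC family, at 0.723. The nearest to MRN1 were BGLU19, a beta-glucosidase, at 0.748, FMO GS-OX2, a glucosinolate oxygenase, at 0.904, PER1, a peroxiredoxin known from seeds, at 0.976, SUS3, a sucrose synthase, at 0.987 and AT5G45310 at 1.09. The distance between THAS1 and MRN1 was 3.47.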

How the data were processed

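Polyadenylated RNA of whole seedlings was analysed in 4 groups of 3 libraries. The members and gene lists were chosen with earlier results of these data known. Separate cultures are not described, so p-values measure the spread between these libraries, which may be technical in part.

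STAR, featureCounts, DESeq2 and TAIR10 are named in the submitters' processing notes, without versions or roles. The authors' deposited gene tables give, per the file headers, a mean signal (normalized counts averaged over an accession's libraries), log2 fold changes of ABA over mock with standard errors, a Wald score, p-values and adjusted p-values. In the Kn-0 table the header stands 1 column off, and the columns were read accordingly. The authors' deposited splicing tables, from rMATS per the file headers, hold junction reads of 3 libraries in each cell, inclusion levels as a fraction, their difference as a score, p-values and FDR. SAMPLE_1 was read as mock and SAMPLE_2 as ABA, per the labels. The order of libraries within a cell is no labelled replicate number.

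Many cells had lost the commas between counts. The counts of 62.45% of Kn-0 and 59.63% of Col-0 events were restored as the division of the digits that gave the authors' inclusion levels to within 0.0005, taking the most even one where any other would differ over 10-fold between libraries. No division did so for 119 events in Kn-0 and 91 in Col-0, and 4 in Col-0 were ambiguous. A gene was represented by its event with most reads, and limma 3.58.1 (R 4.3.3, with a trend) was fitted to log2 of reads + 0.5, scaled to 1000000 reads per library (RPM), for genes averaging 10 or more reads. P-values were adjusted by Benjamini-Hochberg over all genes tested. The fit was tested on simulated data. This scale understates changes of low genes.

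Of the Col-0 exon ends 73.5% are annotated ends of TAIR10.1, against 0.0135% in Kn-0, whose splicing coordinates belong to another genome that is not given in the sources used here. Events were therefore matched between accessions by gene, type, strand and exon lengths, in place of the planned identical coordinates, which gave 60844 events in 9493 genes. Levels in matched events were scaled to the reads of those events alone. The difference in response was the two-sided Wald z of the deposited log2 fold changes over 23994 genes. The gene tables were normalized separately, so their levels are not compared. Levels by treatment were estimated from the deposited mean and fold, with equal numbers of ABA and mock libraries. Of the identifiers, 98.6% in Kn-0 and 99.1% in Col-0 were in the reference. Genes were named by rule: all 8 members, genes between members, up to 4 called genes of each list by absolute log2 fold change, and the 5 genes nearest to THAS1 and to MRN1 over events averaging 50 or more reads. Alternatives changed thresholds, filters, the pseudocount, the scaling, the reads counted and the libraries included.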

Additional observations from a re-analysis of the deposited data

Results flagged for a closer look

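The response of THAA2 to ABA differed between the accessions by 0.68 on the log2 scale (Kn-0 minus Col-0; Wald test on the authors' deposited tables, adjusted p = 0.0013), which is the difference between groups that brought it here. Divided by the slope of the Kn-0 changes on those of Col-0, the difference was 0.35 and did not pass (adjusted p = 0.40, Wald test on the authors' deposited tables). The gene fell in both accessions, and it had no splicing event from which single libraries could be read. Groups of 3 libraries are too small to test a library as standing apart.

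A difference between the accessions in the same test also brought up 3 listed genes outside the clusters. CYP705A1 differed by 1.06 (adjusted p = 8.4e-07, Wald test on the authors' deposited tables). SQE6 differed by 0.53 (adjusted p = 0.00081, Wald test on the authors' deposited tables) and LUP1 by -1.12 (adjusted p = 5.1e-09, Wald test on the authors' deposited tables).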

How the results depend on the processing

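Of 69 recounts of members or events called under other settings, 68 stayed within 1.5 times the count reported, and 1 moved. A count of 0 that stayed 0 was taken as unchanged, as for splicing events and for the difference in response by junction reads. Dividing the Kn-0 changes by the slope of 0.736 left 0 members whose response differed, in place of 1, while it raised the count over all genes to 1022, against 742. The same scaling turned the difference of THAS1 to -0.39 (adjusted p = 0.96, Wald test on the authors' deposited tables) and moved that of MRN1 to 1.67, against 0.53 unscaled, and neither passed under either setting. Over the junction reads, leaving out each library in turn kept 3 members called in each accession (3 to 3), 1 in Kn-0 mock over Col-0 mock (1 to 1) and 0 for the difference in response (0 to 0). Without the ABA library of Kn-0 listed first, the log2 difference of CYP71A16 was -0.02 (adjusted p = 0.96, limma), against 0.33 with it, and leaving out each library it ran from -0.02 to 0.62. Without the mock library of Col-0 listed last, that of THAH between the mock groups was -0.04 (adjusted p = 0.94, limma), against 0.20 with it, and it ran from -0.04 to 0.34. Leaving out each library, THAS1 in Col-0 ran from -4.06 to -2.90 (highest adjusted p = 0.00023, limma) and MRN1 between the mock groups from -3.28 to -2.13 (highest adjusted p = 0.0014, limma). Of 251 values of single members under other settings, 244 kept their direction and their side of the threshold. Many of these values could not reverse. Within an accession, the settings of the deposited changes altered only p-values or thresholds. Leaving out an ABA library cannot move a difference between mock groups. With a minimum absolute log2 fold change of 1, the calls of THAA2 in Kn-0 (-0.93) and CYP71A16 in Col-0 (-0.38) were lost. For the reversals and lost calls the cause was not tested. No paired analysis was possible because the columns of junction reads carry no replicate number and the gene tables no libraries. The 6 reads behind an MRN1 library of Kn-0 mock seedlings, the 4 genes with no splicing event in either accession, and 3 libraries a group limit what could be seen.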
